A study of Mus musculus with 8 samples.

Results

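The kinesin motor genes were taken as the mouse genes whose symbol begins with Kif followed by a digit and that have a probe set annotated with that symbol alone. The rule found 38 genes, read by 44 probe sets, among the 19938 genes of the array that have such a probe set. Where a gene had several probe sets, the one with the highest mean over the 8 arrays was used. RNA came from epithelial cells of fetal mouse lungs at E18.5, selected with magnetic beads for the surface protein Epcam. The 4 control arrays carry the label Control, with no alleles given. The 4 knockout arrays carry the label Mst1/2 CKO and stand for animals in which the Hippo kinase genes Mst1 and Mst2 were deleted with ShhCre. That Cre acts in the epithelial progenitors of the lung, and other cells that pass the Epcam selection need not carry the deletion. Whether a lung was pooled with others, and whether the arrays of a group come from different litters, is not given in the labels. The p-values measure the spread between these arrays.

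Kinesins are motor proteins that hydrolyse ATP to move along microtubules or to take their ends apart. Mitotic kinesins build the spindle, move and align chromosomes and organise the cleavage of the cell, and their transcripts are made mainly in the G2 and M phases of the cell cycle. Transport kinesins carry vesicles, organelles and RNA in cells that are not dividing, and ciliary kinesins build cilia, work within them or control their assembly. The Hippo kinases restrain the coactivators Yap and Taz, which promote the growth of epithelial progenitors. The comparison asks how the transcripts of these motors differ when that restraint is lost.

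Of 7 epithelial markers 2 rose, the keratin genes Krt19 (0.62, SE 0.086, limma adjusted p = 5.39e-04) and Krt8 (0.27, SE 0.079, adjusted p = 0.0367), and 5 did not pass. On the log2 scale Epcam had a control mean of 10.06 ± 0.15 (SD, n = 4) and a knockout mean of 10.07 ± 0.17, and Nkx2-1, the transcription factor of lung epithelium, at 11.16 ± 0.17 and 11.11 ± 0.06. Stk4, which encodes Mst1, was 1.23-fold lower in the knockout arrays (−0.30, SE 0.076, limma adjusted p = 0.0188), and its probe set may lie outside the deleted part, so it checks nothing. Stk3, which encodes Mst2, had no probe set annotated with that symbol alone and was not among the genes tested. The array medians lay between 7.21 and 7.30. Markers of other cell types were present, on an array where 8.60% of all genes rose and 10.2% fell. The mean of 12 mesenchymal markers was 8.49 to 8.91 in control and 8.77 to 9.23 in knockout arrays, and 4 of the 12 rose and 0 fell. The mean of 6 endothelial markers was 8.99 to 9.38 and 9.34 to 9.53, and 3 of the 6 rose and 0 fell. The mean of 6 leukocyte markers was 9.63 to 10.57 and 9.89 to 10.20, and 1 of the 6 fell, Lyz2, which alveolar type 2 cells also express. None of these markers can read 0 on this scale.

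A pair of short DNA elements is known from the promoters of genes expressed in G2 and M phase, the cell cycle genes homology region (CHR) and the CCAAT box. The following stretches show where these letters stand in 3 mitotic kinesins that rose, in the ciliary kinesin Kif24 and in the transport kinesin Kif1c. The 3 are the mitotic kinesins whose CHR letters lie nearest the start site. Each holds the last 120 bases before the RefSeq start site, 5′ to 3′ on the strand of the gene, in assembly GRCm38.p6. Capitals mark TTTGAA or TTCGAA (CHR) and CCAAT on either strand, so that TTCAAA and ATTGG are the reverse complements.
Kif11, chr19:37376262-37376381, plus strand: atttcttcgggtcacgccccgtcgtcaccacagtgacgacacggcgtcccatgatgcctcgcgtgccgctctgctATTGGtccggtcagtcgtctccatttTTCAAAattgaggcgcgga
Kif22, chr7:127042421-127042540, minus strand: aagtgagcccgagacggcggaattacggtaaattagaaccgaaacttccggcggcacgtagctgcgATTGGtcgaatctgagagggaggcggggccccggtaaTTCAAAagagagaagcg
Kif15, chr9:122950961-122951080, plus strand: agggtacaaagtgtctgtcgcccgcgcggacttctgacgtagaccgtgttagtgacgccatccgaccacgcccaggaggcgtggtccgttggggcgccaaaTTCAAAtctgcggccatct
Kif24, chr4:41464849-41464968, minus strand: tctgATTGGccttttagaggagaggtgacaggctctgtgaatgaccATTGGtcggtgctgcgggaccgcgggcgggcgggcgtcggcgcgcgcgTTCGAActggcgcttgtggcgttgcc
Kif1c, chr11:70700428-70700547, plus strand: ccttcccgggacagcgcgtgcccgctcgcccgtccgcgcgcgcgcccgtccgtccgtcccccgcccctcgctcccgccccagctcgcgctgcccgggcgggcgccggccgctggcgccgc

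In Kif11, Kif22 and Kif15 the CHR letters begin 19, 17 and 19 bases before the start site. In Kif11 and Kif22 the CCAAT letters begin 45 and 54 bases before it, upstream of the CHR letters. RefSeq promoters matched 31 of the 38 kinesin genes, with 35 start sites, and the search covered the 250 bases before each. Of the 10 promoters of mitotic kinesins, 5 held the CHR letters and 6 held CCAAT, and 3 held both, which are Kif11, Kif22 and Kif14, the last a gene that did not pass the test. Kif18a and Kif20b, which rose, held neither, and Kif23, Kif18b and Kif4, which rose, held CCAAT without the CHR letters. Among all 32851 promoters 17.1% held the CHR letters, 33.8% CCAAT and 6.02% both. Of the 10 promoters of transport kinesins, 1 held the CHR letters, 2 held CCAAT and 0 held both. The 2 with CCAAT belong to Kif1b, which rose. Of the 9 promoters of ciliary kinesins, 2 held the CHR letters, 5 CCAAT and 2 both, and 1 of these is Kif24. The letters GGAATG, which Tead factors recognise, were in 0 of 10 mitotic, 0 of 10 transport and 2 of 9 ciliary promoters, against 12.6% of all promoters. A match of so few letters is a description of the window and not a binding site.

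All mitotic kinesins but Kif14 rose in the knockout cells, whereas most transport kinesins and all ciliary kinesins did not pass the test. Of the 38 kinesins 13 rose (34.2%), a single gene (1) fell and the other 24 did not pass in limma's test, adjusted by Benjamini-Hochberg over all genes with a threshold of 0.05. Over the whole array 8.60% of genes rose and 10.2% fell. The 13 that rose comprise 10 of 11 mitotic and 3 of 12 transport kinesins, and none of the 9 ciliary or the 6 other genes. The median difference, knockout minus control in log2 expression, was 0.62 for the mitotic, 0.08 for the transport and −0.01 for the ciliary kinesins, and −0.02 for all genes. The classes were set from the known roles of the proteins. They are described by counts and medians, and no test between classes was made.

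**Figure D1:**
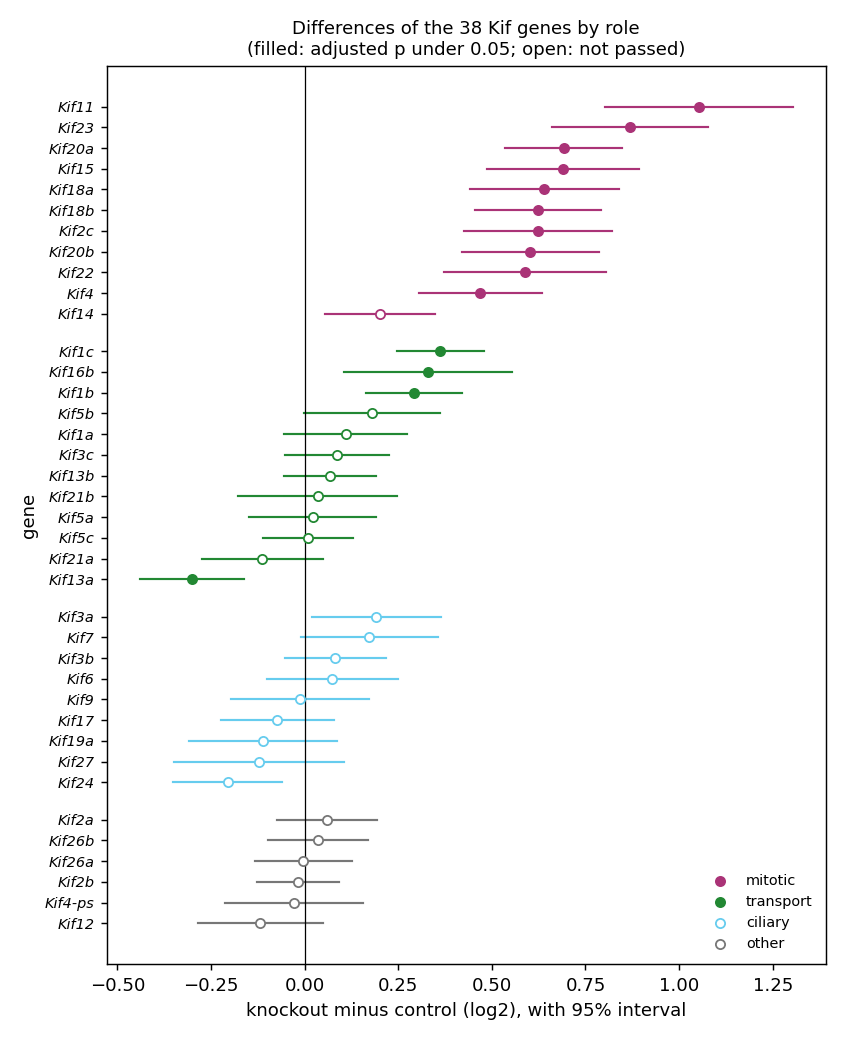
Difference of each of the 38 kinesin genes, knockout minus control in log2 expression (horizontal axis), with its 95% interval, grouped by role. Filled points passed the test and open points did not: the 10 mitotic kinesins that rose lie between 0.47 and 1.05, while the 12 transport kinesins lie between −0.30 and 0.36 and the 9 ciliary kinesins between −0.21 and 0.19.

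All 4 knockout values lay above all 4 control values in each of the 11 mitotic kinesins, a pattern found in 10.2% of all genes. Kif11 (Eg5), the motor that pushes the spindle poles apart, showed the largest difference of the 38. In order of replicate number, the control arrays read 7.81, 7.85, 7.47 and 7.79 and the knockout arrays 8.65, 8.88, 9.03 and 8.58. The lowest knockout value was thus well above the highest control value, and the control array at 7.47 stood below the other 3. The rise was 2.07-fold (log2 difference 1.05, SE 0.11, n = 4 per group, limma adjusted p = 1.05e-04). Kif15, which can share the work of Kif11 in keeping the spindle bipolar, read 7.09, 7.18, 7.12 and 7.16 in control and 7.72, 7.90, 8.07 and 7.61 in knockout arrays. Its control arrays lay close together and its knockout arrays were spread more widely, with SDs of 0.04 and 0.20. The rise was 1.61-fold (0.69, SE 0.091, limma adjusted p = 3.95e-04).

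Of the motors of the central spindle and of cytokinesis, Kif23, Kif20a, Kif20b and Kif4 rose and Kif14 did not pass. Kif23, the motor subunit of the centralspindlin complex, read 8.73, 8.43, 8.45 and 8.46 in control and 9.23, 9.55, 9.50 and 9.28 in knockout arrays. Control replicate 1 stood above the other controls and still below every knockout array. The rise was 1.83-fold (0.87, SE 0.094, limma adjusted p = 1.08e-04). Kif20a, which carries the chromosomal passenger complex to the central spindle, read 7.53, 7.68, 7.55 and 7.65 in control and 8.22, 8.38, 8.41 and 8.18 in knockout arrays, with no overlap. It had the smallest adjusted p of the 38 genes (7.78e-05 in limma, log2 difference 0.69, SE 0.071). Kif20b, a related motor of late cytokinesis, rose 1.52-fold (0.60, SE 0.083). Kif4, a chromosome-bound motor that sets the length of the central spindle, rose 1.38-fold (0.47, SE 0.0745), the smallest rise among the mitotic kinesins that passed.

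Kif14, which acts with citron kinase in cytokinesis, was the mitotic kinesin that did not pass. It read 6.53, 6.59, 6.41 and 6.49 in control and 6.65, 6.65, 6.85 and 6.68 in knockout arrays. The groups did not overlap, but the difference was small (0.20, SE 0.066, 95% interval 0.05 to 0.35, limma adjusted p = 0.0594). A second, dimmer probe set of Kif14 averaged 4.70 in control and 4.72 in knockout arrays. Kif4-ps, a pseudogene of Kif4, averaged 6.04 ± 0.15 and 6.01 ± 0.09, a difference of −0.03 (SE 0.083, limma adjusted p = 0.869). A second probe set of Kif4-ps gave 0.07 (SE 0.074), next to 0.47 for Kif4. The sequences are close relatives, and hybridisation of Kif4 transcripts to the pseudogene's probes, or the converse, was not tested.

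Among the motors that act on chromosomes and on microtubule ends, Kif18b read 7.88, 7.71, 7.81 and 7.66 in control and 8.23, 8.40, 8.40 and 8.52 in knockout arrays. This motor shortens astral microtubules. It rose 1.54-fold (0.62, SE 0.076, limma adjusted p = 2.28e-04). Kif18a, which damps the movements of chromosomes at metaphase, rose 1.56-fold from 6.38 ± 0.10 (SD, n = 4) to 7.02 ± 0.18. Kif2c (MCAK), which takes apart microtubules at centromeres, rose 1.54-fold from 6.84 ± 0.05 to 7.46 ± 0.19. Kif22 (Kid), a DNA-binding motor that pushes chromosome arms outward, rose from 7.25 ± 0.07 to 7.84 ± 0.21 (log2 difference 0.59, SE 0.098). Its limma adjusted p of 0.00172 was the largest among the 10 that rose.

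**Figure D2:**
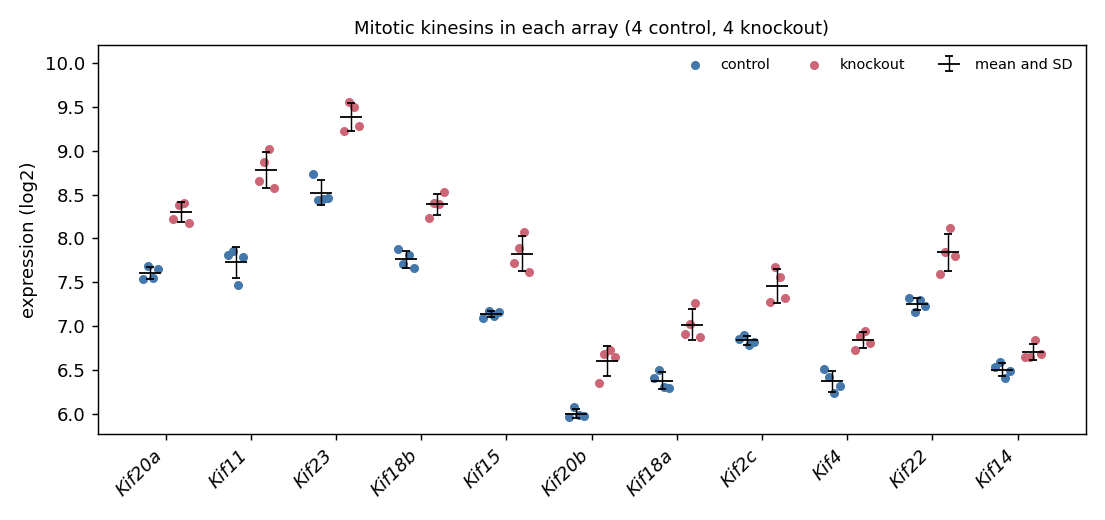
Log2 expression (vertical axis) of the 11 mitotic kinesins in each of the 4 control and 4 knockout arrays, in order of p, with the mean and SD of each group. In every gene the lowest knockout value lies above the highest control value, by the narrowest margin in Kif14 (6.65 against 6.59).

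The knockout arrays differed among themselves in the mitotic kinesins. Knockout replicate 3 gave the highest knockout value in 8 of 11 genes, and knockout replicate 1 gave the lowest in 7 of 11. The mean of the 11 genes was 7.59, 7.81, 7.90 and 7.67 in knockout replicates 1 to 4 and 7.04 to 7.15 in control arrays. In a bulk sample a larger share of dividing cells and more of these transcripts per cell cannot be told apart. The mesenchymal mean of the same 4 knockout arrays was 8.77, 8.83, 9.16 and 9.23. With that mean as a covariate 10 of 11 mitotic kinesins rose and their median difference was 0.64. The mesenchymal mean itself differed between the groups (8.66 ± 0.18 in control and 8.999 ± 0.23 in knockout arrays). That fit therefore cannot tell the part of mesenchymal cells from that of the knockout. The part of endothelial cells, another dividing population, was not tested either. Each of the 10 genes also passed when any 1 array was left out.

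Most transcripts for proteins that work with the mitotic kinesins or regulate their genes rose too. Of 29 measured, 24 rose (82.8%), 0 fell and 5 did not pass in limma's test, and at an unadjusted p under 0.05 the counts were 26 and 0. At that unadjusted threshold 13.8% of all genes were higher and 15.7% lower. Their median difference was 0.57. The list was written down with earlier results of these arrays known, among them the rise of mitosis genes and of Cenpe, and is not independent evidence. The smallest p-values were those of Anln, the cleavage furrow protein anillin (0.94, SE 0.074, limma adjusted p = 1.94e-05), Cenpe, the kinesin of the kinetochore whose symbol the rule does not take (0.93, SE 0.077), and Tpx2 (0.64, SE 0.070), a spindle assembly factor that binds Kif11 and Kif15.

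Partners of single motors can be set beside them. Racgap1, the other subunit of centralspindlin, differed by 0.62 (SE 0.088) and Ect2, the exchange factor it recruits, by 0.73 (SE 0.13), next to 0.87 for Kif23. All 4 subunits of the chromosomal passenger complex, which Kif20a carries, rose: Aurkb by 0.59 (SE 0.079), Cdca8 by 0.74 (SE 0.082), Birc5 by 0.56 (SE 0.088) and Incenp by 0.46 (SE 0.057). Prc1, which bundles the central spindle and brings Kif4 to it, rose by 0.43 (SE 0.077), next to 0.47 for Kif4. Cit, the citron kinase, rose 1.42-fold (0.51, SE 0.077, limma adjusted p = 9.20e-04), whereas its partner Kif14 did not pass.

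The transcription factors of this gene programme were less uniform. Foxm1, an activator of G2 and M phase genes, rose by 0.49 (SE 0.087, limma adjusted p = 0.00274), a call that ended with the mesenchymal mean as a covariate (0.39, adjusted p = 0.0713). Mybl2, its partner at CHR promoters, did not pass (0.23, SE 0.081, adjusted p = 0.0773). Lin54, the subunit of the MuvB complex that binds the CHR, had a control mean of 8.57 ± 0.08 (SD, n = 4) and a knockout mean of 8.59 ± 0.03. Lin9, another MuvB subunit, was at 7.08 ± 0.17 and 7.10 ± 0.23. Neither Lin54 nor Lin9 passed (adjusted p = 0.840 and 0.937).

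The transport kinesins moved little, with 10 of the 12 differences above 0 and 2 below. The mean of the 12 genes was 8.14 to 8.19 in control and 8.24 to 8.31 in knockout arrays. Of the 12 motors 3 rose (25.0%) and 1 fell, while 8 did not pass, and the 12 differences ran from −0.30 to 0.36. Among all genes 8.60% rose and 10.2% fell. Kif1c, a motor of the kinesin-3 family that carries dense-core vesicles and integrins, read 8.68, 8.69, 8.57 and 8.63 in control and 9.01, 8.98, 9.02 and 9.01 in knockout arrays. The knockout arrays were nearly equal and all above the controls. The rise was 1.29-fold (0.36, SE 0.053, limma adjusted p = 7.03e-04). A second, dimmer probe set of Kif1c gave 0.23 (SE 0.082) and did not pass when every probe set was tested (adjusted p = 0.0751).

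Kif1b, a kinesin-3 motor of mitochondria and synaptic vesicle precursors, read 9.08, 9.04, 8.99 and 9.09 in control and 9.37, 9.34, 9.41 and 9.24 in knockout arrays. The groups did not overlap, and the rise was 1.22-fold (0.29, SE 0.058, limma adjusted p = 0.00501). Kif16b, which moves early endosomes, read 8.28, 8.34, 8.01 and 8.49 in control and 8.70, 8.64, 8.67 and 8.43 in knockout arrays. The groups overlapped, because knockout replicate 4 lay below control replicate 4. Its rise was 1.26-fold (0.33, SE 0.10, limma adjusted p = 0.0453). That call for Kif16b ended without control array 1, 2 or 3 and without knockout array 1, 2 or 3, each left out alone (adjusted p from 0.0663 to 0.118), and 2 transport kinesins then rose. It also ended with each array centred on its median (adjusted p = 0.0842) and with the mesenchymal mean as a covariate (0.236). The Kif16b difference was 0.32 and 0.33 in these 2 settings.

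Kif13a was the kinesin that fell. This kinesin-3 motor carries recycling endosomes and mannose-6-phosphate receptors. It read 9.32, 9.37, 9.24 and 9.24 in control and 9.03, 8.93, 9.10 and 8.91 in knockout arrays. No knockout array reached the lowest control array, as in 11.9% of all genes. The fall was 1.23-fold (−0.30, SE 0.063, limma adjusted p = 0.00676), and with the mesenchymal mean as a covariate the adjusted p was 0.102 (−0.27). Kif13b, the closest relative of Kif13a, had a control mean of 8.63 ± 0.05 (SD, n = 4) and a knockout mean of 8.70 ± 0.05 (0.07, SE 0.055, limma adjusted p = 0.486).

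Conventional kinesin, the heavy chains Kif5a, Kif5b and Kif5c, did not pass the test. Kif5b, the form made in most cells, read 10.44, 10.42, 10.28 and 10.58 in control and 10.59, 10.60, 10.77 and 10.47 in knockout arrays, with overlap (0.18, SE 0.082, 95% interval −0.00084 to 0.36, limma adjusted p = 0.171). The forms best known from neurons, Kif5a and Kif5c, differed by 0.02 (SE 0.076) and 0.01 (SE 0.054). The light chain Klc1, which couples these heavy chains to cargo, rose 1.56-fold from 9.48 ± 0.15 (SD, n = 4) to 10.12 ± 0.11 (0.64, SE 0.085, limma adjusted p = 4.08e-04). It was therefore the light chain and not a heavy chain that passed, and the difference between them was not tested. Klc3 (0.16, SE 0.056) and Klc4 (0.12, SE 0.059) did not pass.

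The remaining transport motors were Kif1a, Kif3c, Kif13b, Kif21a and Kif21b, with differences from −0.11 to 0.11. Kif21a (−0.11, SE 0.073) and Kif21b (0.03, SE 0.095) slow the growth of microtubules. Kif1a, a motor of synaptic vesicle precursors, read 7.69, 7.61, 7.70 and 7.64 in control and 7.72, 7.67, 7.71 and 7.99 in knockout arrays, so that its difference of 0.11 came mostly from knockout replicate 4. The mean of 7 neuronal markers was highest in that array as well, at 6.11 against 5.88 to 5.94 in the other 7 arrays, and its part in the value was not tested. Over the 8 transport kinesins that did not pass, the 95% intervals of the differences ran from −0.27 to 0.36.

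**Figure D3:**
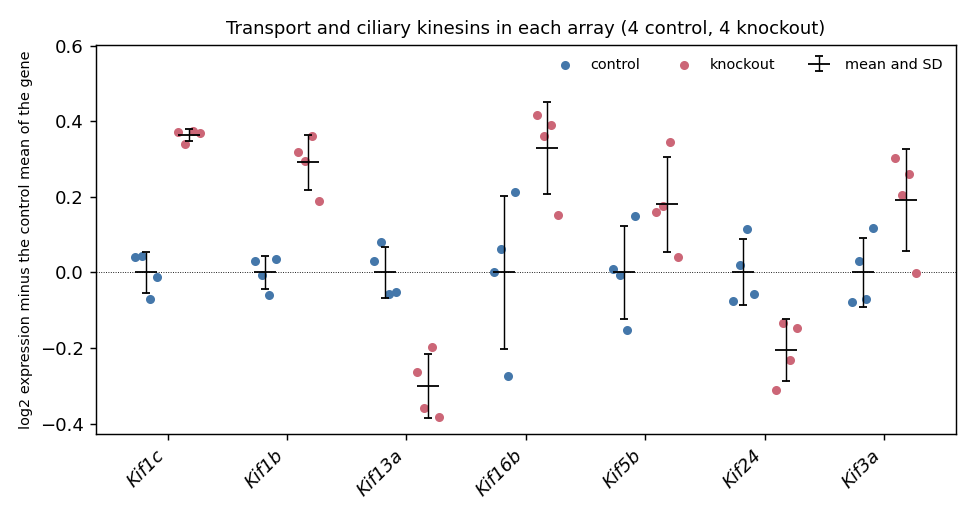
Log2 expression in each array minus the gene's control mean (vertical axis) for the 5 transport kinesins and the 2 ciliary kinesins with the smallest p, with the mean and SD of 4 arrays per group. The groups are apart in Kif1c, Kif1b, Kif13a and Kif24 and overlap in Kif16b, Kif5b and Kif3a.

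The opposite class of microtubule motor, cytoplasmic dynein, gave a similar picture. Over the whole array 8.60% of genes rose and 10.2% fell. Of 23 measured dynein subunits and cofactors 5 rose (21.7%), 1 fell and 17 did not pass. Those with the smallest p were Bicd2, a cargo adaptor (0.36, SE 0.056, limma adjusted p = 0.00102), Nde1, a dynein regulator that also acts in mitosis (0.36, SE 0.066), and Dctn1, the large subunit of dynactin (0.29, SE 0.055). With the mesenchymal mean as a covariate 2 rose and 0 fell, and Dctn1 no longer passed (0.26, adjusted p = 0.0730). The number that fell was 0 without knockout replicate 3, 2 without control replicate 4 or knockout replicate 2, and 3 without knockout replicate 4. The C-terminal motor Kifc3 rose by 0.31 (SE 0.064, limma adjusted p = 0.00663), but not with that covariate (0.25, adjusted p = 0.128). Kifc2 averaged 7.48 and 7.32 and did not pass.

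None of the 9 ciliary kinesins passed limma's test, and at an unadjusted p under 0.05 there was 1 higher and 1 lower, where 13.8% and 15.7% of all genes were. With array weights, and without knockout replicate 4, 1 rose and 1 fell. The lower one was Kif24, which sits at the mother centriole and holds back the formation of cilia. It read 6.999, 7.09, 7.19 and 7.02 in control and 6.76, 6.94, 6.84 and 6.93 in knockout arrays. The groups did not overlap (−0.21, SE 0.066, 95% interval −0.35 to −0.06, limma adjusted p = 0.0537). Kif24 passed in 4 of 17 alternatives. The adjusted p was 0.0375 with array medians centred, 0.0362 after quantile normalization, 0.0428 with array weights and 0.0459 without knockout replicate 4. It did not pass in the others, where the adjusted p ran up to 0.207, with the mesenchymal mean as a covariate. Kif24 thus had the CHR and CCAAT letters shown above and a difference of opposite sign to that of Kif11 and Kif22.

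The higher one was Kif3a, the motor subunit of the kinesin-2 complex that carries intraflagellar transport trains outward. It read 7.71, 7.82, 7.72 and 7.90 in control and 8.09, 7.99, 8.04 and 7.78 in knockout arrays. Knockout replicate 4 lay among the controls, and the groups overlapped (0.19, SE 0.078, 95% interval 0.02 to 0.36, limma adjusted p = 0.126). Without knockout replicate 4 the difference was 0.26 (adjusted p = 0.0212). The second motor subunit, Kif3b, differed by 0.08 (SE 0.061). The third subunit of that complex, Kifap3, rose by 0.28 (SE 0.080, limma adjusted p = 0.0331). Leaving out control array 1, 2 or 3 or knockout array 1, 2 or 3 ended that call (adjusted p from 0.0574 to 0.0991). It ended as well with array medians centred (0.0729) and with the mesenchymal mean as a covariate (0.115). The Kifap3 difference was 0.27 and 0.33 in these 2 settings.

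The other 7 ciliary kinesins differed by −0.12 to 0.17. Kif7, which organises the tip of the primary cilium in Hedgehog signalling, had a control mean of 7.52 ± 0.06 (SD, n = 4) and a knockout mean of 7.69 ± 0.17 (0.17, SE 0.083, limma adjusted p = 0.194). Its relative Kif27 averaged 6.58 ± 0.16 and 6.46 ± 0.18 (−0.12, SE 0.10). Kif19a, which shortens microtubules at the tips of motile cilia, averaged 6.91 ± 0.15 and 6.80 ± 0.13 (−0.11, SE 0.089). Kif17, an accessory motor of intraflagellar transport, and Kif6 and Kif9, which are found in motile cilia, differed by −0.07, 0.07 and −0.01. Over the 9 genes the 95% intervals ran from −0.35 to 0.36.

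Some genes of motile cilia fell in the same arrays, where 10.2% of all genes fell and 8.60% rose. Of 29 measured genes of motile cilia and multiciliated cells 14 fell (48.3%), 1 rose and 14 did not pass, with a median of −0.30. The smallest p-values were those of Ccno, a cyclin-like protein of centriole amplification (−0.91, SE 0.083, limma adjusted p = 4.10e-05), Dnah11, an axonemal dynein heavy chain and the gene that rose (0.82, SE 0.091), and Deup1, a protein of the deuterosome, where centrioles are made (−1.06, SE 0.13). The number that fell was 8, 7 and 7 without control replicates 2, 3 and 4 and 8 without knockout replicate 1 or 3, and it was 8 with the mesenchymal mean as a covariate. Of the 28 measured genes of intraflagellar transport and the cilium 4 fell (14.3%), 2 rose (7.14%) and 22 did not pass. Their median was −0.09, and these adjusted shares lie near those of all genes. At an unadjusted p under 0.05 in limma's test, 10 of the 28 were lower and 2 higher. At that threshold 15.7% of all genes were lower and 13.8% higher. Of the 28 differences 19 were below 0 and 9 above. Ift20, which also serves at the Golgi apparatus, fell 1.60-fold (−0.68, SE 0.081, limma adjusted p = 1.99e-04) and Dync2li1, of the dynein that returns the trains, fell by 0.60 (SE 0.13). Ift43 rose by 0.32 (SE 0.057). The number that rose was 1 when control array 1, 3 or 4 or knockout array 1, 2 or 3 was left out, and with the mesenchymal covariate 0 rose and 1 fell. With that covariate Dync2li1 no longer passed (−0.38, adjusted p = 0.208), nor did Ift43 (0.24, adjusted p = 0.0716).

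**Figure D4:**
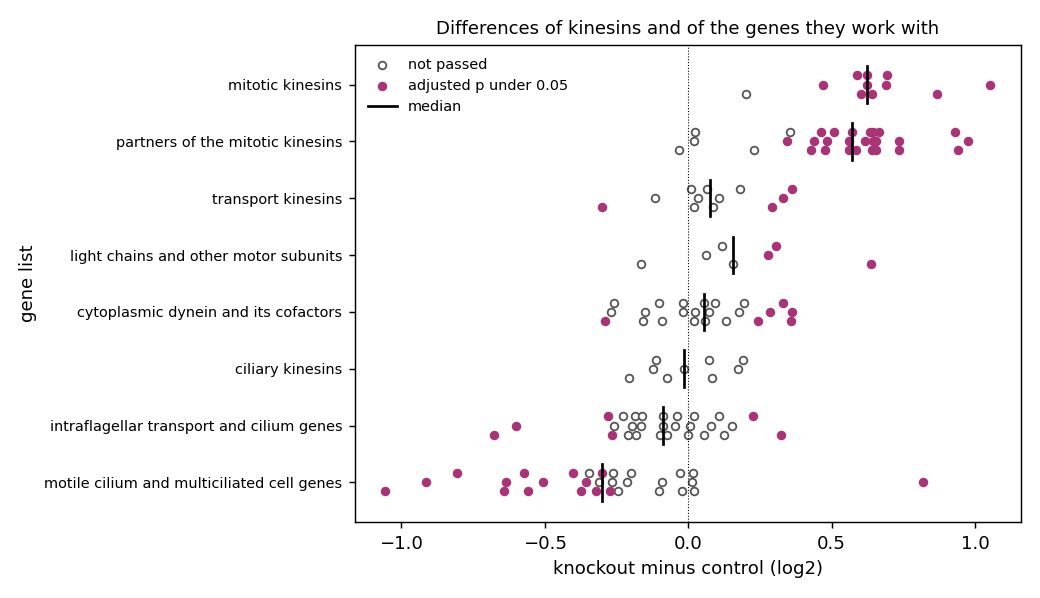
Differences, knockout minus control in log2 expression (horizontal axis), of the measured genes of 8 lists, with filled points for genes that passed the test and a bar at each list's median. The medians are 0.62 for mitotic kinesins and 0.57 for their partners, near 0 for transport and ciliary kinesins, and −0.30 for genes of motile cilia.

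The 6 genes outside these classes did not pass either. At an unadjusted p under 0.05 the count was also 0. Kif12, a kinesin known from kidney epithelium, read 6.39, 6.06, 6.22 and 6.17 in control and 6.06, 6.09, 6.03 and 6.19 in knockout arrays, and its difference of −0.12 (SE 0.076) came largely from control replicate 1. Kif2a, a microtubule depolymerase of the same family as Kif2c that is not restricted to dividing cells, read 9.18, 9.27, 9.12 and 9.32 in control and 9.28, 9.31, 9.23 and 9.30 in knockout arrays. Its groups overlapped and differed by 0.06 (SE 0.061, 95% interval −0.07 to 0.19), next to 0.62 for Kif2c. Kif2b, the third member of that family, averaged 6.03 ± 0.03 (SD, n = 4) and 6.01 ± 0.02. Kif26a and Kif26b, kinesin-like proteins that do not walk along microtubules, differed by −0.0037 (SE 0.058) and 0.04 (SE 0.060). A second, dimmer probe set of Kif26b gave 0.30 (SE 0.070). It passed when every probe set was tested (limma adjusted p = 0.0123), so the result for Kif26b depends on the probe set.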

How the data were processed

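The authors deposited log2 expression values for 35556 probe sets in 8 single-colour Affymetrix arrays. How they were normalized is not given in the sources used here, and the log2 scale was read from the values. The largest distance of any array from the average distribution, rank by rank, was 0.175, so no scaling was added. Genes were named from GEO's platform annotation, with 21789 probe sets of 1 symbol, 1621 of several and 12146 of none given. All 38 kinesin symbols matched RefSeq (GRCm38.p6) by gene number. The probe set annotated to both Kifc1 and Kifc5b was not used. No filter on low values was applied, and all 38 genes were tested.

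The 4 knockout arrays were tested against the 4 control arrays by limma (version 3.58.1, lmFit and eBayes, under R 4.3.3) over 19938 genes, two-sided, without covariates, and p-values were adjusted by Benjamini-Hochberg. SEs and 95% intervals of differences are moderated, and intervals are unadjusted. The method was tested on simulated arrays. Precision is limited by the number of arrays. The members, classes and lists were chosen with earlier results of these data known. Single-array values were given for the 5 mitotic kinesins of smallest p, the other kinesins that passed, and 2 members of each remaining class; those of Kif14, Kif5b and Kif1a were added after their values were seen. Of each further list the 3 genes of smallest p were named, and any of the mitotic partners. Alternatives were a replicate block, centred medians, quantile normalization, a level filter, 2 other uses of probe sets, a variance trend, array weights, a mesenchymal covariate and the omission of arrays.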

Additional observations from a re-analysis of the deposited data

Results flagged for a closer look

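In 5 of 76 groups of 4 arrays 1 kinesin value stood far from the other 3, and chance alone flags about 1 group in 20. Kif11 read 7.47 in control replicate 3, where the next control was 7.79. Kif23 read 8.73 in control replicate 1, where the next was 8.46. Kif20b read 6.07 in control replicate 2, where the next was 5.98. Kif1c read 8.98 in knockout replicate 2, where the next was 9.01 and the whole spread was small. Kif1a read 7.99 in knockout replicate 4, where the next was 7.72.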

How the results depend on the processing

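Each of the 10 mitotic kinesins that rose passed in every alternative in which it was tested (17 or 18 each), and Kif14 passed in 0. Kif1c and Kif1b also passed in all 18. When genes below the median level were left out, 4 mitotic kinesins were tested and all 4 rose, 7 kinesins rose in all, the medians were 0.78 for mitotic and 0.17 for ciliary kinesins, 15 partners rose, 2 dynein genes fell and 1 marker of other cell types fell; fewer genes are tested there. For the following the cause was not tested. The number of kinesins that fell was 2, with 1 ciliary kinesin among them, with centred medians, quantile normalization and array weights, and 1 ciliary kinesin rose with array weights. With the mesenchymal covariate 1740 genes of the whole table passed (3746 in the main test), and 0 kinesins fell, 0 of them transport kinesins. In that setting 1 light chain or motor subunit, 2 dynein genes and 0 ciliary transport genes rose. There, 1 marker of other cell types rose (8 in the main test, 5 with array weights). Those that fell with the covariate were 1 ciliary transport gene, 8 motile cilium genes and 0 dynein genes. Dynein genes that fell numbered 2 with centred medians or a variance trend. Genes of intraflagellar transport that rose numbered 1 with the replicate block, centred medians, quantile normalization, all probe sets tested, a variance trend or without knockout replicates 1 and 4 together. In that last setting the mitotic median was 0.77, 0 dynein genes fell and 1 marker of other cell types fell. Of the light chains and subunits 1 fell with quantile normalization and with array weights.

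Leaving out 1 array at a time gave 12 to 14 kinesins that rose and 1 to 2 that fell, 10 mitotic, 2 to 3 transport and 0 to 1 ciliary kinesins that rose, and 0 to 1 ciliary kinesins that fell. The mitotic median lay between 0.59 and 0.69, and the ciliary between −0.05 and 0.03. It gave 0 to 3 dynein genes that fell, 1 to 2 ciliary transport genes that rose, 7 to 18 motile cilium genes that fell, and 5 to 12 markers of other cell types that rose and 1 to 2 that fell. The signs of 10 genes near 0, none of which passed, turned. Kif21b was −0.0050 with array weights and −0.028 with the mesenchymal covariate, and −0.024 to 0.106 without single arrays. Kif5a was −0.012 with array weights, −0.019 without knockout replicates 1 and 4, and −0.019 to 0.081 without single arrays. Kif5c was −0.0013 with centred medians, −0.0086 with array weights, −0.015 with the covariate, and −0.011 to 0.033 without single arrays. Kif26b was −0.037 with the covariate and −0.020 without knockout replicates 1 and 4. Kif4-ps was 0.019 as the mean of its probe sets and −0.082 to 0.035 without single arrays. Without single arrays Kif9 lay between −0.080 and 0.032, Kif26a between −0.034 and 0.027, Lin54 between −0.0031 and 0.062, and Lin9 between −0.054 and 0.135. Numa1 was 0.00042 with the covariate and 0.014 without knockout replicates 1 and 4.

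Same-numbered arrays did not deviate together (correlations from −0.0818 to 0.0951), and 1 of 8 arrays matched its own number best. With the replicate number as a block 3494 genes passed, 10 mitotic, 2 transport and 0 ciliary kinesins rose, 1 kinesin fell, and Kif16b (adjusted p = 0.0757) and Kifap3 (0.0649) no longer passed.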

Other observations

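For 6 kinesins more than 1 probe set was present, and in Kif1c, described in the report, and Kif26b the choice of probe set bears on the call. The dimmer probe set of Kif26b read 6.44 to 6.54 in control and 6.72 to 6.99 in knockout arrays, without overlap. Its difference was 0.30 (SE 0.070, adjusted p = 0.0123 over all probe sets with 1 symbol, limma), while the brighter probe set used in the report gave 0.04 (SE 0.060). Kif26b is known mainly from embryonic mesenchyme, and the 12 mesenchymal markers averaged 8.66 ± 0.18 (SD, n = 4) over control and 8.999 ± 0.23 over knockout arrays. Their part in the difference was not tested. The second probe sets of Kif6, Kif7 and Kif4-ps gave 0.01, 0.06 and 0.07, and none of them passed.

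Among the neuroendocrine and neuronal markers 2 of 13 measured genes passed, against 18.8% of all genes in either direction. Stmn2, a microtubule-destabilising protein, rose by 0.39 (SE 0.067, limma adjusted p = 0.00206), and Resp18, a secretory granule protein, fell by 0.26 (SE 0.065, adjusted p = 0.0189). Resp18 was dim, with means of 4.87 in control and 4.62 in knockout arrays, where the median level of all genes was 7.59.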
